A study of Mus musculus with 6 samples.

Results

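The genes described here are 36 genes of antigen presentation and of macrophages and dendritic cells, measured on 6 expression arrays of mouse CD4+ CD25+ T cells. The list was drawn up with earlier results of these data known and falls into 9 genes of MHC class I presentation, 8 of MHC class II presentation, 10 macrophage and monocyte genes, and 9 dendritic cell genes and myeloid regulators. Each of the 36 has 1 transcript cluster (the array's unit of measurement, a set of probes for 1 transcribed locus) among the 65528 clusters measured. For 33 of them the cluster carries that gene symbol alone. The clusters of H2-T23 (with C920025E04Rik), Nlrc5 (with the microRNA gene Mir7072) and Cd74 (with the microRNA gene Mir5107) are shared, so their values are given as cluster values and stayed out of the fit. Of the 33 genes with their own cluster, 27 reached the array median at least 3 times in 6 and were among the 16825 genes tested.

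Both groups were splenic cells of untreated male mice on a C57BL/6 background, obtained by magnetic separation, with 3 arrays per genotype. In the group called Keap1_KO (replicates B, C and D; genotype label Keap1 -/-), Cre recombinase under the Vav promoter deletes a floxed Keap1. The group called WT (replicates A, D and F) is labelled Keap1 +/+, and the labels do not say whether these mice carry Cre or the floxed allele. Vav drives Cre throughout blood-forming cells, so B cells, macrophages and dendritic cells of these mice carry the deletion too. The labels give an age of 10 to 12 months in one field and of 6 to 10 weeks in another. Whether the arrays stand for different mice is not stated, and p-values then reflect only array-to-array spread, which may be technical. Values in a sentence are given in the order A, D, F for WT and B, C, D for Keap1_KO.

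Nearly all nucleated cells show peptides from their own proteins on MHC class I. The heavy chain (H2-K1, H2-D1) pairs with beta-2-microglobulin (B2m) and is loaded in the endoplasmic reticulum, where the Tap1 and Tap2 transporter delivers peptides, tapasin (Tapbp) holds the complex and Erap1 trims the peptide. MHC class II shows peptides taken up from outside and is, in mice, made by B cells, dendritic cells and macrophages but hardly by T cells. Nlrc5 and Ciita are the master coactivators of class I and class II genes, respectively, and both act at promoters that share an upstream module of boxes, among them the CCAAT-type Y box. KEAP1 is the adaptor through which the transcription factor NRF2 is degraded.

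The promoters of the class I and class II genes are shown because promoters of this family share a module of boxes. Of the 36 genes, 24 have a window in the RefSeq table (build GRCm38.p6, bases around the annotated start). In the motif counts below, a gene counts when any of its windows matches, whereas the share over all windows is counted per window. The octamer CTGATTGG stands here for the Y box and was searched on both strands. It lies in the windows of 8 of the 24 genes (33.3%), against 4.1% of all 32851 windows. These are H2-K1, H2-D1, H2-T23, Tap1, H2-Aa, H2-Eb1, H2-Oa and Irf8. None of the 5 macrophage genes with a window has it. The shorter core GATTGG, contained in the octamer, is in the windows of 13 of the 24 genes and in 16.1% of all windows. It adds B2m, H2-DMa, H2-Ob, the macrophage gene Cd68 and Xcr1. In the following stretches, each 5′ to 3′ on the strand of its gene, capitals mark the octamer, or its core in B2m and H2-Ob. H2-K1 and H2-D1 also hold ATTGG in lower case before the capitals. Whether a match is the Y box of the shared module or another CCAAT-type element was not tested.
H2-K1 (chr17:34000318-34000379, minus strand): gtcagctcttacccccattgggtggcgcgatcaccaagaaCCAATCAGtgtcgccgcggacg
H2-D1 (chr17:35263001-35263062, plus strand): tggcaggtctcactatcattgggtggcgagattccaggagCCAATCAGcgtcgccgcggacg
H2-T23 (chr17:36032732-36032793, minus strand): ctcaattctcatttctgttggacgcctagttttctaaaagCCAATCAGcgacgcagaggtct
B2m (chr2:122147593-122147652, plus strand): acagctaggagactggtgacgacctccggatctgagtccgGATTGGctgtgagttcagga
Tap1 (chr17:34187306-34187355, plus strand): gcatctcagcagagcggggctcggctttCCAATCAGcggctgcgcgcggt
H2-Aa (chr17:34287853-34287914, minus strand): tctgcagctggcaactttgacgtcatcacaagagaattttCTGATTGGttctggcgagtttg
H2-Eb1 (chr17:34305765-34305826, plus strand): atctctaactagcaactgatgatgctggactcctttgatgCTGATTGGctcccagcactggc
H2-Oa (chr17:34092293-34092354, plus strand): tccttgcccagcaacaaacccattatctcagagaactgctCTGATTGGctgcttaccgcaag
H2-Ob (chr17:34238807-34238866, plus strand): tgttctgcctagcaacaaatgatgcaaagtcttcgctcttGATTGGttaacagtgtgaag

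The octamer CTGATTGG faces opposite ways in the class I and class II genes that hold it. In H2-K1, H2-D1, H2-T23 and Tap1 it reads CCAATCAG on the strand of the gene, and in H2-Aa, H2-Eb1 and H2-Oa it reads CTGATTGG. The shorter core does not keep to this: in the class I gene B2m it reads GATTGG on the strand of the gene, and H2-Eb1 has a second core on the opposite strand. The octamer begins 46 to 62 bases before the annotated start in the 3 class II genes. It begins 53 bases before the start in H2-D1, 52 in H2-T23 and 222 in Tap1. In H2-K1 it begins 6 bases before 1 of 2 annotated starts, so that it spans this start, and 8 bases after the other. The search was for letters alone, so which way the Y box of the module itself faces was not tested. The interferon-stimulated response element, searched on both strands as 2 GAAA repeats with 2 bases between them, is in the windows of B2m, H2-T23 and Erap1 and in 3.44% of all windows. The antioxidant response element that NRF2 binds, searched as TGACNNNGC on both strands, is in those of H2-K1, Lyz2, C1qb, Itgax, Siglech and Irf8, which is 6 of 24 genes (25%) against 12.4% of all windows. Some genes have more than 1 window, and a match describes letters, not binding.

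The arrays correlated at 0.958 to 0.983 within a genotype and at 0.927 to 0.988 between genotypes across the genes tested. Keap1 read 5.30 to 5.77 in WT and 4.70 to 4.89 in Keap1_KO, without overlap, against array medians of 5.16 to 5.43. Cd4 read 11.16 to 12.30 in WT and 12.09 to 13.29 in Keap1_KO, and the cluster that Foxp3 shares read 10.76 to 11.15 and 11.11 to 12.41, and Il2ra, which encodes CD25, read 13.77 to 14.18 and 13.60 to 14.19, so the markers of the labelled cells were present on every array. Genes of other cells were also read: all 11 B cell, 6 plasma cell and 7 NK cell markers with a cluster of their own reached the filter. So did 16825 of all 30024 genes. Among these markers Jchain read 10.45 to 13.29 and Blk 5.36 to 6.21, so not all lay far above the array medians. Globin clusters, which mark red blood cells, separated the genotypes. The cluster shared by Hbb-bs and its beta-globin relatives read 9.71, 9.34 and 9.85 in WT and 13.03, 14.25 and 14.93 in Keap1_KO (difference 4.44), and that shared by Hba-a1 and Hba-a2 read 9.49, 8.61 and 11.82 in WT and 13.19, 12.37 and 13.15 in Keap1_KO (difference 2.93). Of the other erythroid genes, Slc4a1 was without overlap higher by 0.17, while Alas2 (-0.39) and Klf1 (0.02) overlapped. Whether red blood cell RNA has a part in the values of the 36 genes was not tested. In such bulk RNA, more cells of a type and more RNA per cell cannot be told apart.

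Taken as 1 list, the share of these genes that separated the genotypes was near that of all genes. All values are deposited log2 values, and differences are Keap1_KO minus WT, with standard errors (SE) and adjusted p from limma. Of the 27 genes tested, 22 had a higher mean in Keap1_KO, against 56.5% of all genes tested. None passed an adjusted p under 0.05, and neither did any other gene (0 of 16825, 0%), while at an unadjusted p under 0.05 there were 5 of 27 and 1733 of 16825 (10.3%). In 3 of the 27 (11.1%), Tap1, Tap2 and Vcam1, every Keap1_KO array lay above every WT array, which holds for 9.11% of all genes tested. In none of the 27 did every Keap1_KO array lie below every WT array, which holds for 4.96%. Array Keap1_KO B weighs on this: without it 575 genes passed the adjusted threshold, and 31.6% of genes lay without overlap higher in Keap1_KO. Groups of fewer arrays separate more easily, and with any other array left out that share was 10.6% to 23.9%.

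**Figure D1:**
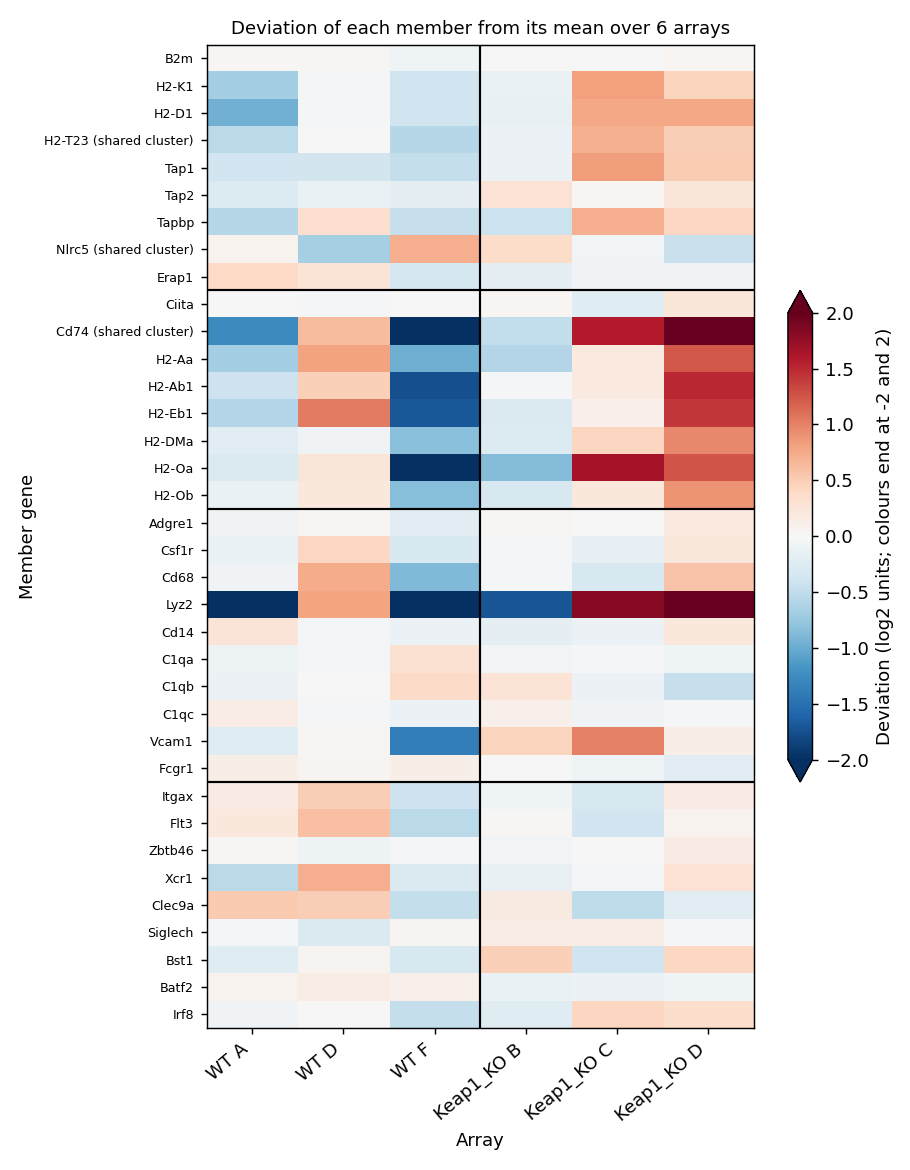
Each row is 1 of the 36 genes and each column 1 array, and the colour gives the deviation of the log2 value from the mean of that gene over 6 arrays. Horizontal lines separate class I, class II, macrophage and dendritic genes, the vertical line separates WT from Keap1_KO, and the widest spread between arrays is seen for Lyz2 and Cd74.

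H2-K1, H2-D1, H2-T23, Tap1, Tap2 and Tapbp had higher means in Keap1_KO, by 0.39 to 0.93 on the log2 scale, B2m differed by 0.02, and Nlrc5 and Erap1 had lower means. Of 7 class I genes with their own cluster, 6 had a higher mean, against 56.5% of all genes tested, and 2 lay without overlap higher, against 9.11%. None passed the adjusted threshold. Their median difference was 0.46, against 0.06 over all genes tested. The mean deviation of the 7 was -0.35, 0.01 and -0.34 in WT and -0.10, 0.45 and 0.33 in Keap1_KO, so Keap1_KO B fell among the WT arrays. CD4 T cell markers, with a median difference of 0.85 over 11 genes, ran in the same order of genotypes, at -0.43, -0.12 and -0.52 on the WT arrays and -0.21, 0.72 and 0.56 on the Keap1_KO arrays. Of these 11 markers 4 lay without overlap higher, Cd6 (0.85), Cd2 (0.83), Lat (1.12) and Thy1 (0.65), against 9.11% of all genes tested. Whether the general level of T cell transcripts has a part in the class I values was not tested.

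The classical heavy chain genes were high on the same arrays. H2-K1 read 13.54, 14.17 and 13.81 in WT and 14.08, 15.03 and 14.66 in Keap1_KO. The groups overlapped only through Keap1_KO B, which lay below WT D. The difference was 0.75 (SE 0.30, 1.68-fold), with a limma adjusted p = 0.476 and an exact two-sided permutation p = 0.2, where 0.1 is the smallest that 3 arrays against 3 allow. H2-D1 read 13.72, 14.66 and 14.28 in WT and 14.53, 15.46 and 15.45 in Keap1_KO. Its difference was 0.93 (SE 0.35, 1.90-fold, limma adjusted p = 0.476), again with Keap1_KO B below WT D. The cluster of H2-T23, a nonclassical heavy chain gene that encodes Qa-1, read 8.19, 8.74 and 8.16 in WT and 8.61, 9.44 and 9.21 in Keap1_KO, a difference of 0.73. Heavy chain genes are near-identical in parts and the cluster named H2-D1 carries a second gene identifier, so their probes may not be separate.

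B2m, the light chain shared by class I molecules, read 19.21, 19.21 and 19.09 in WT and 19.18, 19.18 and 19.22 in Keap1_KO, a difference of 0.02 with a 95% interval from -0.32 to 0.37. B2m sits at the top of the scale of these arrays. The 127 clusters with a mean of 19 or more had a median SD of 0.119 over the 6 arrays, against 0.576 for the 1392 clusters with means between 13 and 16. Whether B2m could show a difference of the size seen for the heavy chains was not tested.

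Both subunits of the peptide transporter had all Keap1_KO arrays above all WT arrays. Tap1 read 7.98, 8.0 and 7.88 in WT and 8.25, 9.19 and 8.86 in Keap1_KO. The WT arrays lay close together and the Keap1_KO arrays were spread, with B nearest to WT. The difference was 0.81 (SE 0.26, 1.76-fold), with a limma adjusted p = 0.476 and an exact permutation p = 0.1. Tap2 read 6.99, 7.13 and 7.09 in WT and 7.55, 7.31 and 7.51 in Keap1_KO. Its difference was 0.39 (SE 0.16, 1.31-fold, limma adjusted p = 0.476), and here Keap1_KO B was the highest array, unlike for the other class I genes. Tapasin (Tapbp) read 8.62, 9.53 and 8.74 in WT and 8.76, 9.92 and 9.61 in Keap1_KO, with WT D above Keap1_KO B and a difference of 0.46 (SE 0.38).

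**Figure D2:**
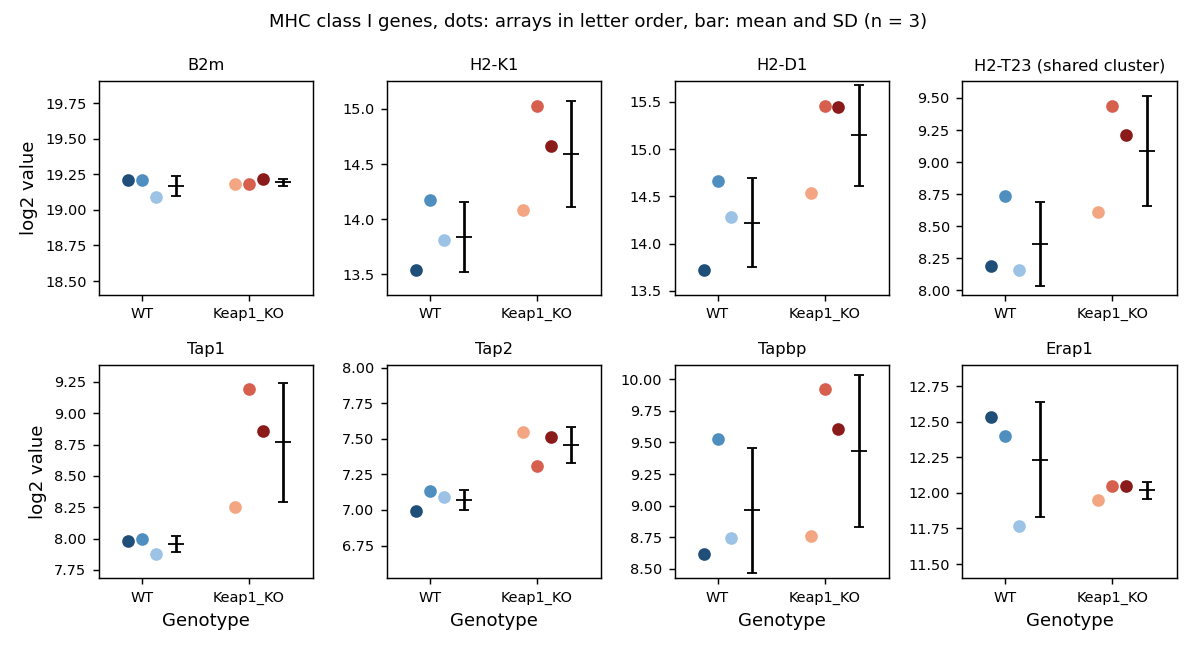
Each panel plots 1 class I gene, with log2 value on the vertical axis (each panel has its own range) and genotype on the horizontal axis; dots are the arrays in letter order and the black bar gives mean and SD of 3 arrays. Keap1_KO B, the first dot of its group, lies below WT D for H2-K1, H2-D1, H2-T23 and Tapbp, and the groups do not overlap for Tap1 and Tap2.

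The remaining class I genes had lower means in Keap1_KO. The trimming peptidase gene Erap1 read 12.53, 12.40 and 11.77 in WT and 11.95, 12.05 and 12.05 in Keap1_KO, a difference of -0.21 with a 95% interval from -0.78 to 0.35. The cluster of Nlrc5, the class I coactivator, read 7.63, 6.90 and 8.29 in WT and 7.92, 7.50 and 7.12 in Keap1_KO. Its difference of -0.10 became 0.01 after repeated quantile normalization and 0.02 after centring the arrays on their medians. Its arrays run in another order than those of the heavy chain genes, with WT F highest and WT D lowest.

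The class I result rests on how 2 arrays are treated. Without Keap1_KO B the median of the class I genes was 0.80, H2-K1, H2-D1, Tap1, Tap2 and Tapbp (5 of 7) lay without overlap higher, against 31.6% of all genes, and Tap1 passed the threshold (limma adjusted p = 0.0486). Without WT D the same 5 genes lay without overlap higher, against 23.9% of all genes, and the median was 0.75. With array weights, which gave WT A a weight of 3.38 and Keap1_KO B one of 0.35, the adjusted p was 0.0421 for H2-K1, 0.0414 for H2-D1 and 0.0408 for Tap1 by limma, and 1880 genes (11.2%) passed. Over all 13 alternatives the limma adjusted p of these 3 genes reached up to 0.898.

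Among 22 other genes of class I presentation, 17 have their own cluster. Of these, 15 had higher means in Keap1_KO, against 56.5% of all genes tested, with a median of 0.58 against 0.06. None passed the adjusted threshold. Against 9.11% of all genes tested, 4 of the 17 lay without overlap higher. These were H2-Q1 (0.18), the lipid-presenting gene Cd1d1 (0.58), Mr1, which presents microbial metabolites (0.58), and Tapbpl, the tapasin relative TAPBPR that edits the peptide (1.01). The dim cluster that H2-T3 shares with H2-T18 was without overlap lower (-0.14). Psmb10, an inducible catalytic subunit of the immunoproteasome that makes class I peptides, had the largest difference. It read 7.45, 8.11 and 6.93 in WT and 7.86, 10.58 and 10.80 in Keap1_KO, a difference of 2.25 (SE 0.81, limma adjusted p = 0.476). The difference comes from Keap1_KO C and D, and Keap1_KO B lay among the WT arrays. The nonclassical gene H2-T10 differed by 0.93 with overlap. The immunoproteasome genes Psmb8 (0.87) and Psmb9 (0.81) overlapped too.

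Interferon-gamma is the best known inducer of class I and class II genes, and its response genes were mixed. Of 17 such genes with their own cluster, 13 had higher means in Keap1_KO (median 0.40), against 56.5% of all genes tested. Without overlap 2 were higher, Socs1 (0.24) and Ifngr2 (0.29), against 9.11%, and 1 lower, against 4.96%. The gene that was lower is Iigp1, an immunity-related GTPase, which read 9.13, 9.19 and 9.08 in WT and 8.36, 8.71 and 8.32 in Keap1_KO (difference -0.67, SE 0.17, limma adjusted p = 0.476). Irgm2 (0.88), Gbp2 (0.85) and Irf1 (0.78) had the largest differences, and their arrays overlapped.

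MHC class II genes had higher means in Keap1_KO, but their arrays overlapped in every case. All 7 with their own cluster had a higher mean, against 56.5% of all genes tested. None lay without overlap, against 9.11% higher and 4.96% lower, and none passed the adjusted threshold. Their median difference was 0.76, against 0.06 over all genes tested. The mean deviation was -0.33, 0.38 and -1.16 in WT and -0.33, 0.36 and 1.08 in Keap1_KO, so WT D was close to Keap1_KO C, and WT A and Keap1_KO B were alike to 2 decimals. Without WT F the median was 0.23, and without Keap1_KO D it was 0.32.

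Cd74, the invariant chain that guards the class II groove, had the widest range among the class II clusters. Its shared cluster read 10.22, 12.12 and 8.79 in WT and 11, 13.07 and 13.73 in Keap1_KO, a difference of 2.22 with an exact permutation p of 0.2. WT D lay above Keap1_KO B, and WT F was the lowest array by more than 1 log2 unit. The alpha and beta chain genes followed a similar order. H2-Aa read 6.99, 8.48 and 6.70 in WT and 7.09, 7.86 and 8.91 in Keap1_KO, a difference of 0.56 (SE 0.62). H2-Ab1 read 8.19, 9.07 and 6.84 in WT and 8.58, 8.79 and 10.11 in Keap1_KO, a difference of 1.13 (SE 0.65). H2-Eb1 read 8.05, 9.67 and 6.94 in WT and 8.34, 8.73 and 10.04 in Keap1_KO, a difference of 0.82 (SE 0.76). In all 3 chain genes Keap1_KO D was highest, WT D second and WT F lowest. Without WT D the 3 genes lay without overlap higher in Keap1_KO. That is 3 of 7 class II genes (42.9%), against 23.9% of all genes.

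The peptide exchange genes differed in which array was high. H2-DMa, part of the exchange factor that loads class II, read 7.17, 7.34 and 6.57 in WT and 7.13, 7.84 and 8.37 in Keap1_KO (difference 0.76, SE 0.37, limma adjusted p = 0.480). H2-Oa, a subunit of the inhibitor of that factor, read 8.68, 9.21 and 6.93 in WT and 8.10, 10.63 and 10.22 in Keap1_KO (difference 1.38, SE 0.84), with Keap1_KO C the highest array. Its partner H2-Ob read 8.44, 8.78 and 7.73 in WT and 8.25, 8.78 and 9.48 in Keap1_KO (difference 0.52, SE 0.40). For H2-Oa and H2-DMa the groups overlapped only through Keap1_KO B, and without it both lay without overlap higher. That is 2 of 7 class II genes (28.6%), against 31.6% of all genes. Ciita, the class II coactivator, read 5.36, 5.34 and 5.36 in WT and 5.41, 5.12 and 5.60 in Keap1_KO, near the median of each array. Its difference was 0.02 (95% interval -0.41 to 0.46).

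B cell markers were read beside the class II genes. Over 11 B cell genes the mean deviation was -0.30, 0.66 and -1.09 in WT and 0.29, -0.50 and 0.94 in Keap1_KO, with a median difference of 0.27. The range was -1.09 to 0.66 in WT and -0.50 to 0.94 in Keap1_KO, and WT F was lowest and Keap1_KO D highest in both lists. No B cell marker lay without overlap, against 9.11% higher and 4.96% lower of all genes tested. On Keap1_KO C the lists went apart, with 0.36 for class II and -0.50 for B cell genes. Ms4a1, which encodes CD20, read 8.54, 9.57 and 6.14 in WT and 8.69, 6.37 and 9.44 in Keap1_KO. Cd79b, a chain of the B cell receptor complex, read 8.44, 10.95 and 7.91 in WT and 9.90, 10.95 and 12.63 in Keap1_KO. Plasma cell markers stood at -0.47, 0.20 and -0.64 in WT and -0.76, 0.36 and 1.31 in Keap1_KO, and so did not part from class II on Keap1_KO C. NK cell markers stood at -0.23, 0.84 and -1.38 in WT and -0.33, -0.16 and 1.26 in Keap1_KO, also with WT F lowest and Keap1_KO D highest. The part of B, plasma and NK cell transcripts in the class II values was not tested.

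**Figure D3:**
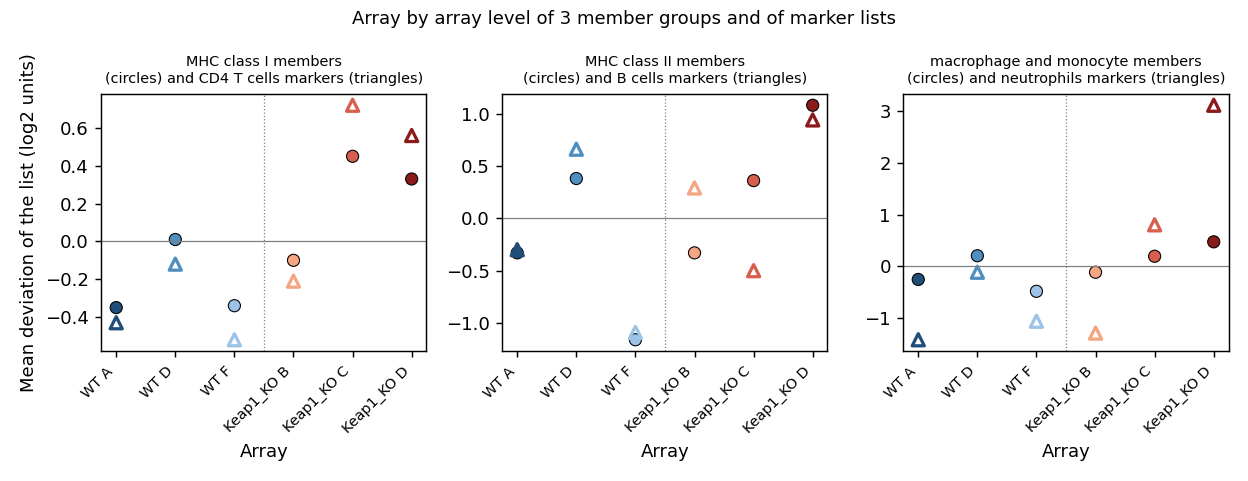
Each panel plots, for the 6 arrays, the mean deviation in log2 units of a group of genes (circles) and of a marker list (triangles); vertical ranges differ between panels. Class I genes and CD4 T cell markers are highest on Keap1_KO C and D, class II genes and B cell markers are lowest on WT F and highest on Keap1_KO D, and neutrophil markers reach 3.12 on Keap1_KO D.

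Of 15 other genes of class II presentation, 12 had higher means in Keap1_KO (median 0.33), against 56.5% of all genes tested. None passed the adjusted threshold, and 2 lay without overlap higher, against 9.11%. One was Cd80, a costimulatory ligand, which read 7.85, 7.47 and 7.77 in WT and 8.83, 8.23 and 8.67 in Keap1_KO (difference 0.88, SE 0.22, limma adjusted p = 0.476). The other was Rfx5, part of the complex that binds the X box (0.27). Ifi30, a lysosomal thiol reductase, had the largest difference (1.91), followed by Ctss, the protease that cuts the invariant chain (1.73), and Rfxank, the partner of Rfx5 (1.40). Ctss read 11.77, 12.49 and 11.68 in WT and 12.18, 14.62 and 14.32 in Keap1_KO, so that Keap1_KO B lay below WT D. In Ifi30 and Rfxank Keap1_KO B lay among the WT arrays too.

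Most macrophage and monocyte genes were dim and had small differences, with Vcam1 and Lyz2 as exceptions. Of 10 genes, 5 had a higher and 5 a lower mean, and the median difference was 0.005 (-0.03 over all 30024 genes without the filter). C1qa, a complement gene of tissue macrophages, read 4.37 to 4.77, Cd14, the endotoxin coreceptor gene, 4.16 to 4.62, and Fcgr1, the high-affinity IgG receptor gene, 4.13 to 4.47. These 3 lay below the median of their array on all 6 arrays. C1qb reached it on 2 arrays (4.65 to 5.50), and C1qc stayed between 5.56 and 5.82. Csf1r, the growth factor receptor of macrophages, reached it on 3 arrays (5.08 to 5.81) and Adgre1, a surface receptor gene of macrophages, on 5 (5.41 to 5.81). Differences ranged from -0.20 in Fcgr1 to 0.16 in Adgre1 in these 7 genes, and those of Cd14 (-0.07), C1qa (-0.11) and C1qc (-0.01) turned above 0 with each array centred on its median. For Fcgr1 every Keap1_KO array (4.13 to 4.35) lay below every WT array (4.40 to 4.47), as for 8.33% of all genes without the filter.

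Lyz2, the lysozyme gene of macrophages and neutrophils, had the largest difference and the widest spread of all 36 genes. It read 8.58, 11.73 and 8.21 in WT and 9.22, 12.75 and 15.13 in Keap1_KO. The difference was 2.86 (SE 1.63, limma adjusted p = 0.500, exact permutation p = 0.2), and Keap1_KO B lay below WT D. It was 1.48 without Keap1_KO D and 4.44 without Keap1_KO B. Without Keap1_KO B, and likewise without WT D, Lyz2 lay without overlap higher, against 31.6% and 23.9% of all genes. Neutrophil markers ran beside it, with a mean deviation of -1.43, -0.12 and -1.07 on the WT arrays and -1.30, 0.80 and 3.12 on the Keap1_KO arrays. Retnlg, a neutrophil gene, read 8.22, 11.93 and 7.15 in WT and 7.37, 9.16 and 14.16 in Keap1_KO. Neutrophil markers differed on WT D: S100a8 read 13.76, 17.05 and 15.63 in WT, but Ngp read 7.72, 8.16 and 8.18 and Mpo 6.15, 6.35 and 6.18. All 11 neutrophil markers had a higher mean in Keap1_KO, against 56.5% of all genes tested, and 1 (Mpo) lay without overlap, against 9.11%. Cd68, a lysosomal glycoprotein gene of macrophages, did not share this order: it read 7.88, 8.69 and 7.06 in WT and 7.90, 7.62 and 8.52 in Keap1_KO, a difference of 0.14 (SE 0.45). The part of neutrophil transcripts in the Lyz2 values was not tested.

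Vcam1, an adhesion molecule of splenic macrophages, stroma and endothelium, was higher on all Keap1_KO arrays. It read 6.74, 7.03 and 5.60 in WT and 7.43, 7.99 and 7.12 in Keap1_KO. WT D lay just below Keap1_KO D, and WT F was far below the other arrays. The difference was 1.06 (SE 0.42, 2.09-fold, limma adjusted p = 0.476, exact permutation p = 0.1), and 0.63 without WT F. Of 16 further macrophage genes with their own cluster, 10 passed the filter. The 16 had a median difference of 0.07, with 10 higher and 6 lower means. Of the 16, 3 lay without overlap higher, against 6.01% of all genes without the filter. Axl, a receptor for dying cells, read 6.77, 6.59 and 6.64 in WT and 7.23, 8.34 and 7.78 in Keap1_KO (difference 1.11, SE 0.29, limma adjusted p = 0.476). The other two were Fcgr3 (0.64) and Mertk, whose difference was 0.02 and whose arrays all lay below their medians. Siglec1, a macrophage sialic acid receptor gene that was also below every median, was without overlap lower (-0.19), as were 8.33% of all genes without the filter. Tyrobp, an adaptor of myeloid and NK cells, differed most (2.54, with overlap), followed by Fcer1g (1.46, with overlap). Vsig4 (-0.22), Timd4 (-0.16), Mrc1 (-0.12), Cd163 (-0.11) and Cd5l (-0.04) had lower means, with overlap.

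**Figure D4:**
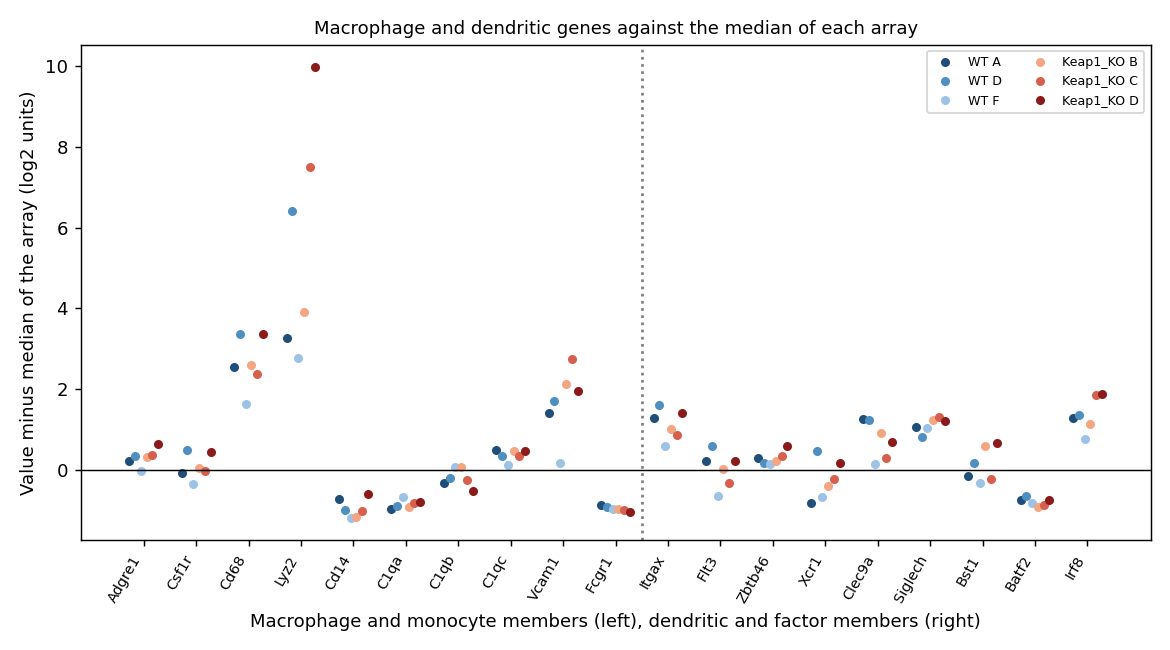
The vertical axis gives the log2 value minus the median of all clusters on the same array, for the 10 macrophage and monocyte genes on the left and the 9 dendritic genes and regulators on the right; each dot is 1 array. Cd14, C1qa, Fcgr1 and Batf2 lie below the line on all 6 arrays, and Lyz2 spreads most.

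Dendritic cell genes had small differences in both directions. Of 9 genes, 5 had a higher and 4 a lower mean, with a median of 0.07 and differences from -0.36 to 0.37, and none passed the adjusted threshold. Itgax, which encodes CD11c, read 6.60, 6.92 and 6.02 in WT and 6.34, 6.11 and 6.59 in Keap1_KO (difference -0.17, 95% interval -0.83 to 0.49). Flt3, the growth factor receptor of dendritic cells, read 5.54, 5.92 and 4.79 in WT and 5.35, 4.94 and 5.40 in Keap1_KO (difference -0.18). Zbtb46, a transcription factor of conventional dendritic cells, stayed between 5.49 and 5.76. Clec9a, a receptor of cross-presenting dendritic cells for dead cells, read 6.59, 6.56 and 5.58 in WT and 6.24, 5.55 and 5.85 in Keap1_KO (difference -0.36, SE 0.34). Itgax, Flt3 and Clec9a were all low on WT F, and without that array all 3 lay without overlap lower in Keap1_KO. That is 3 of 7 dendritic genes tested (42.9%), against 11.2% of all genes. Xcr1, the chemokine receptor of the same cross-presenting cells, reached its array median on only 2 arrays, with values from 4.52 to 5.79.

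The plasmacytoid and regulator genes had small differences too. Siglech, a marker of plasmacytoid dendritic cells, read 6.39, 6.12 and 6.47 in WT and 6.56, 6.57 and 6.39 in Keap1_KO (difference 0.18), and lay without overlap higher only with centred arrays, with repeated quantile normalization, without WT F and without Keap1_KO D. Of all genes, 12.4%, 8.59%, 11.7% and 10.6% did so in these settings. Bst1, an ecto-enzyme gene of myeloid and stromal cells, read 5.19, 5.48 and 5.11 in WT and 5.90, 5.03 and 5.84 in Keap1_KO (difference 0.33, SE 0.28). Irf8, the transcription factor that specifies cross-presenting and plasmacytoid dendritic cells and is also used by B cells, read 6.61, 6.68 and 6.21 in WT and 6.45, 7.12 and 7.04 in Keap1_KO (difference 0.37, SE 0.25). Keap1_KO B lay among the WT arrays for Irf8, and without it the groups did not overlap, as for 31.6% of all genes. Irf8 was then 1 of 6 dendritic genes tested (16.7%). Batf2, an interferon-induced AP-1 factor, read 4.58, 4.67 and 4.62 in WT and 4.39, 4.40 and 4.43 in Keap1_KO. The groups did not overlap, yet all 6 values lay below the array medians and the difference was only -0.22 (SE 0.10, limma adjusted p = 0.564 in the fit without the filter). Batf2 and Fcgr1 are thus 2 of 33 genes (6.06%) without overlap lower, against 8.33% of all genes without the filter.

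Other dendritic markers were read beside them. Of 10 further genes of conventional dendritic cells, 6 had a higher and 4 a lower mean. None lay without overlap, against 6.01% higher and 8.33% lower of all genes without the filter. Cd24a (0.81), Tlr3 (-0.47) and Cd209a (0.36) had the largest differences. Among 9 further genes of plasmacytoid cells, 5 had a higher and 4 a lower mean, with a median difference of 0.21. Cox6a2 (0.77) and Pacsin1 (0.40) lay without overlap higher, against 6.01% of all genes without the filter. The 4 with lower means were Ccr9 (-0.625), Klk1 (-0.33), Tlr9 (-0.33) and Tlr7 (-0.33), all with overlap. Bst2, an antiviral tether gene that many cells express, differed by 2.44 through Keap1_KO C (12.19) and Keap1_KO D (12.68). It read 8.33 to 9.54 in WT and 9.15 on Keap1_KO B. Among 7 monocyte genes none lay without overlap, against the same 6.01% higher and 8.33% lower, and Ly6c2, F13a1 and Cx3cr1 differed by 0.60, 0.46 and -0.11.

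**Figure D5:**
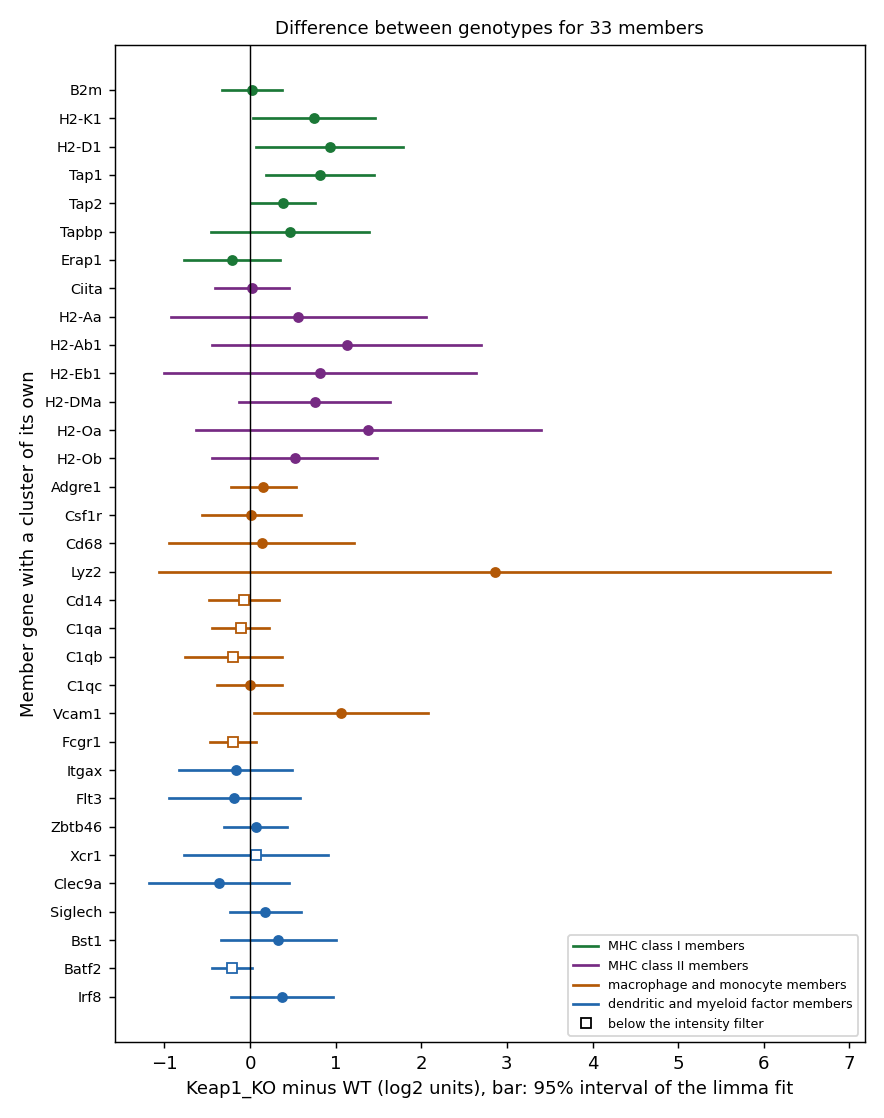
For the 33 genes with their own cluster, the point gives the Keap1_KO minus WT difference in log2 units and the bar its 95% interval from limma; open squares mark the 6 genes below the intensity filter. The interval lies above 0 for H2-K1, H2-D1, Tap1, Tap2 and Vcam1 before any adjustment, and it is widest for Lyz2.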

How the data were processed

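The values were deposited by the authors as log2 expression, with 1 value for each cluster on each array. The submitters' processing notes name RMA, Affymetrix Expression Console and Transcriptome Analysis Console, all unversioned, and no genome build. Values run from 1.88 to 19.93, although a 16-bit scanner ends at 16, so an unstated rescaling is likely and fold changes are on the deposited scale. The design text names Mouse Gene 2.0 arrays, whereas cluster identifiers match the annotation of another mouse array, and names rest on that match: 30354 clusters carry 1 symbol, 2118 several and 33056 none here.

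A cluster was kept when at or above its array's median on at least 3 of 6 arrays, and the brightest stood for a gene. Limma 3.58.1 in R 4.3.3 (lmFit, eBayes), checked on simulated data, was adjusted by Benjamini-Hochberg over 16825 genes. Members below the filter were taken from the fit without it. A direction between groups was read only where arrays did not overlap. Depth does not apply: 3 arrays per group limit precision. The members and all lists were chosen with earlier results of these data known. All 36 members are named, and of the 3 pathway lists the genes without overlap and the 3 largest differences in each. Marker genes are named outside this rule, after their values were seen. Lists are described by counts and medians. There were 13 alternatives. Some genes of the lists are not reported here.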

Additional observations from a re-analysis of the deposited data

How the results depend on the processing

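The filter, the scale and single arrays moved several counts. Groups of fewer arrays separate more easily, so counts without overlap rise by design when an array is left out. What else moved the counts was not tested. The number of genes past the adjusted threshold (0) was 1 with eBayes trend and robust settings, 1880 with array weights, and 0 to 575 when arrays were left out in turn, the highest without Keap1_KO B. Genes without overlap higher in Keap1_KO numbered 1532, and 1743 to 5233 with an array left out. Those lower numbered 835, against 2500 without the filter, 383 with centred arrays, 476 after repeated quantile normalization, and 1099 to 2973 with an array left out. The median of class I genes (0.46) was 0.88 with array weights and 0.35 to 0.80 with an array left out. That of macrophage genes (0.005) was 0.60 with the stricter filter, which kept 4 of 10. The class II median (0.76) was 0.23 without WT F and 1.11 without WT D, and the dendritic one (0.07) was -0.12 without WT A. Both moved by less than the spread of their list between arrays in all alternatives run. For class II that spread was wide, with mean deviations from -1.16 on WT F to 1.08 on Keap1_KO D.

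Centring moved the median of all genes from 0.06 to 0.17 and repeated quantile normalization to 0.15, and 56.5% of genes with higher means became 68.6% and 65.9%. Of 36 members, 25 kept the sign of their difference in every alternative that gave a value, and 11 (B2m, Nlrc5, Ciita, Csf1r, Cd68, Cd14, C1qa, C1qc, Itgax, Flt3 and Xcr1) changed it at least once. No paired analysis was possible because the genotypes share only the letter D.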
